A study of Homo sapiens with 6 samples.

Results

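The genes described here are the MHC class II genes and their peptide editors, a set of 10 fixed by name: HLA-DRA, HLA-DRB1, HLA-DPA1, HLA-DPB1, HLA-DQA1, HLA-DQB1, HLA-DMA, HLA-DMB, HLA-DOA and CD74. All 10 were found by Ensembl identifier among the 63086 genes of the count table, and the rule that picks them uses names, not measured values. They were followed by mRNA sequencing of 6 libraries of HEK293T, a human kidney cell line of embryonic origin that carries the SV40 large T antigen. The supplemented cells (100Q, 3 libraries) were depleted cells returned to queuine for 24 hours, at 100 nM by the sample characteristics or 1 µM by the treatment protocol, a conflict that the labels do not settle. The depleted cells (0Q, 3 libraries) were kept in medium with dialyzed serum, on which the supplemented cells also grew. Queuine is a base that cells take up and build into the anticodon of 4 kinds of tRNA, where it is called queuosine. The series title names MHC class II expression as an outcome. All libraries come from a single line, no cytokine is named in the labels, and the labels do not say that the triplicates were cultured apart. A p-value here therefore weighs a difference against the scatter among these libraries, and that scatter may be only technical.

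MHC class II molecules are pairs of an alpha and a beta chain that carry peptides from the endosomal pathway to the cell surface, where helper T cells read them. HLA-DR, HLA-DP and HLA-DQ are the presenting molecules. CD74, the invariant chain, fills the new binding groove, HLA-DM exchanges the fragment left of it for antigen peptide, and HLA-DO, of which HLA-DOA is the alpha chain, restrains HLA-DM. Professional antigen-presenting cells hold these genes at high level under the transactivator CIITA, and most other cells express them only after interferon gamma. Their promoters share an X box, bound by the RFX complex, and a Y box, bound by NF-Y at a CCAAT sequence.

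The promoter stretches are shown first because that layout can be looked for in them. RefSeq promoters (build GRCh38.p14) were on hand for 9 of the 10 genes, HLA-DRA being the other, and only the 250 bases before each annotated start were searched. The patterns were chosen after these promoters had been read. AGNNACNGA stood for the core of the X box, with any base at N. The Y box was searched as ATTGG on either strand. Capitals mark the matches, and each stretch is written 5′ to 3′ on the gene's strand.

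HLA-DQB1 (chr6:32666729-32666790, minus strand): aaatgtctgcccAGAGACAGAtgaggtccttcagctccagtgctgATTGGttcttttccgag
HLA-DRB1 (chr6:32589878-32589939, minus strand): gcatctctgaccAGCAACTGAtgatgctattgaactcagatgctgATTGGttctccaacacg
HLA-DMA (chr6:32953160-32953222, minus strand): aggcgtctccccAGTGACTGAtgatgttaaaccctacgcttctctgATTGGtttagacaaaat
HLA-DOA (chr6:33009642-33009704, minus strand): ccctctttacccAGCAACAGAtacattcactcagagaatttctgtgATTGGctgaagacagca
HLA-DQA1 (chr6:32637292-32637354, plus strand): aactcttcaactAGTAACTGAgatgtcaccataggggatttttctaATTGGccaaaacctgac
HLA-DPA1 (chr6:33073699-33073760, minus strand): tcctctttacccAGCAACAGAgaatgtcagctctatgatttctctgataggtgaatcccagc
HLA-DMB (chr6:32941067-32941128, minus strand): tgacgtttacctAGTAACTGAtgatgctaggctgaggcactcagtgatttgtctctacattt
HLA-DPB1 (chr6:33075841-33075907, plus strand): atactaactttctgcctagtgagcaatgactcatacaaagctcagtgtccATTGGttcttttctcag
CD74 (chr5:150412947-150413013, minus strand): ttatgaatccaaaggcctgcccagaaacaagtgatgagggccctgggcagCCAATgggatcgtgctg

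In HLA-DQB1, HLA-DRB1, HLA-DMA, HLA-DOA and HLA-DQA1 the X pattern was followed on the same strand by ATTGG after 24 or 25 bases. Of 35116 RefSeq promoters searched over the same length on both strands, 12.3% held AGNNACNGA, 32.0% held ATTGG and 0.350% held the first followed by the second within 30 bases. The patterns were chosen from the class II promoters themselves, so their 5 matches among 9 genes are not a test against these shares. HLA-DPA1 and HLA-DMB held the X pattern with no ATTGG behind it. The HLA-DPB1 stretch held ATTGG without the X pattern. The CD74 stretch held the reverse complement of ATTGG, also without the X pattern. HLA-DPA1 has a second start in the RefSeq table, whose promoter held neither pattern and is not shown. These are matches of letters and say nothing of whether a factor is bound.

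**Figure D1:**
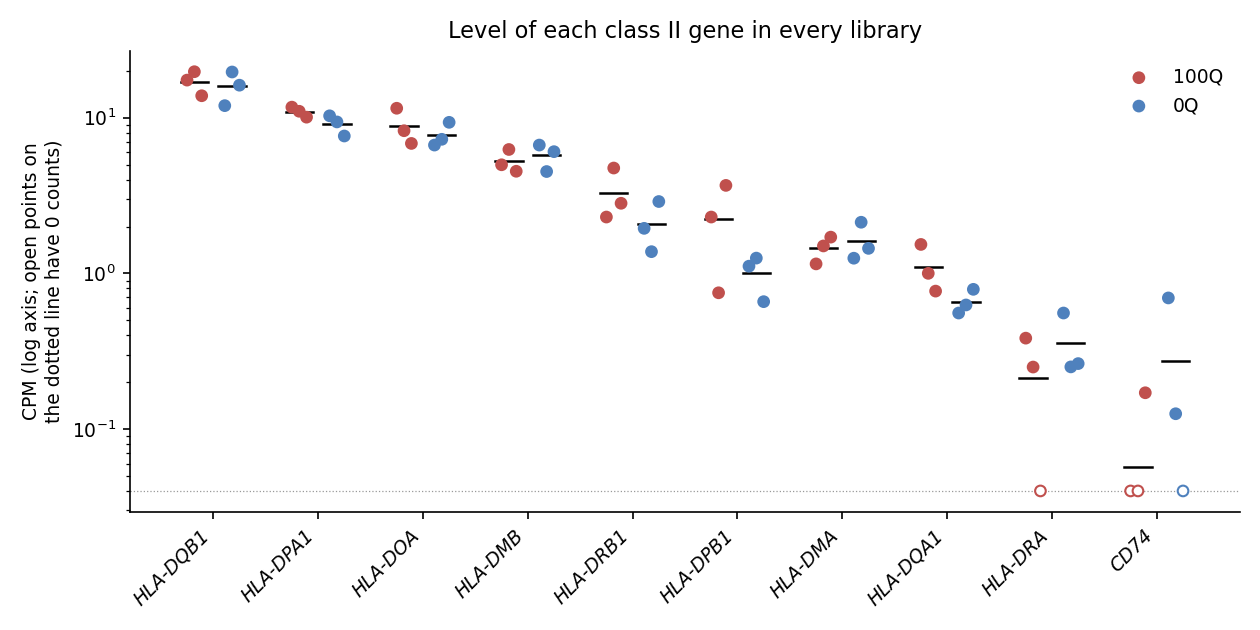
Level of each class II gene (CPM, log axis) in the 3 libraries of 100Q (red, left) and the 3 of 0Q (blue, right); points are libraries, bars are group means, and open points on the dotted line mark 0 counts. HLA-DQB1 lies between 11.96 and 19.8 CPM and CD74 at or below 0.695 CPM, and for no gene are the groups fully apart.

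The 100Q libraries held 4023956 to 11398835 estimated counts and the 0Q libraries 7264638 to 8035251, so that 1 count stood for 0.0855 to 0.250 CPM (the count scaled to library size, with each library's total multiplied by its TMM factor). HEK293T genes were present in every library: the neurofilament gene NEFM averaged 167 ± 22.2 CPM in 100Q, against 186 ± 10.7 CPM in 0Q (SD, n = 3 each), and all 12 genes of the HEK293T list were expressed well enough to be tested. Of 20 markers of antigen-presenting cells, 14 had at most 5 counts over the 6 libraries together and 6 had none, namely PTPRC, MS4A1, LYZ, TYROBP, CD86 and CLEC9A. CD83 and IRF8 were tested and did not pass. Of 5 T cell markers 4 had 0 counts, and of 4 epithelial or endothelial markers CDH1 and EPCAM were tested and did not pass. The summed level of the 20 markers was 20.3 to 25.6 CPM in 100Q and 20.3 to 29.8 CPM in 0Q.

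The 10 class II genes together took a very small part of each library, between 0.00412% and 0.00532% of its counts. Their summed level was 53.3, 53.5 and 44.4 CPM in 100Q and 41.7, 46.6 and 45.3 CPM in 0Q. The means were 50.4 ± 5.18 CPM in 100Q, against 44.5 ± 2.53 CPM in 0Q (SD, n = 3 each). The 100Q replicate 3 lay within the 0Q range, so the groups overlapped. In such bulk libraries, fewer cells that express a gene and less RNA per cell cannot be told apart.

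Levels differed far more between the genes than between the conditions. Per kilobase of the transcript with the longest coding sequence, the mean over 6 libraries was 9.95 ± 1.90 CPM per kb for HLA-DQB1 and 6.06 ± 0.853 CPM per kb for HLA-DPA1 (SD, n = 6). HLA-DMB followed at 4.08 ± 0.699, HLA-DOA at 2.40 ± 0.536, HLA-DRB1 at 2.19 ± 0.949 and HLA-DMA at 1.40 ± 0.323 CPM per kb. The lowest were HLA-DQA1 at 0.729 ± 0.295, HLA-DPB1 at 0.407 ± 0.291, HLA-DRA at 0.230 ± 0.148 and CD74 at 0.10 ± 0.163 CPM per kb. Only HLA-DQB1 over HLA-DPA1 and HLA-DMB over HLA-DOA were neighbours in this order with no overlap between libraries. Both gaps were narrow. HLA-DQB1 had a lowest value of 7.22 against a highest of 7.08 CPM per kb for HLA-DPA1. HLA-DMB had a lowest of 3.35 against a highest of 3.32 CPM per kb for HLA-DOA. The other neighbours overlapped.

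On the same scale, HLA-DQB1 exceeded 68.2% of 19562 protein-coding genes and HLA-DPA1 exceeded 58.8%. HLA-DRA exceeded 31.5% and CD74 27.7%, levels that rest on 11 and 8 counts in all. With length taken from the union of annotated exons HLA-DQB1 exceeded 58.0%, HLA-DOA 51.0% and HLA-DPA1 48.8%, so HLA-DOA moved above HLA-DPA1, and CD74 exceeded 24.9%.

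**Figure D2:**
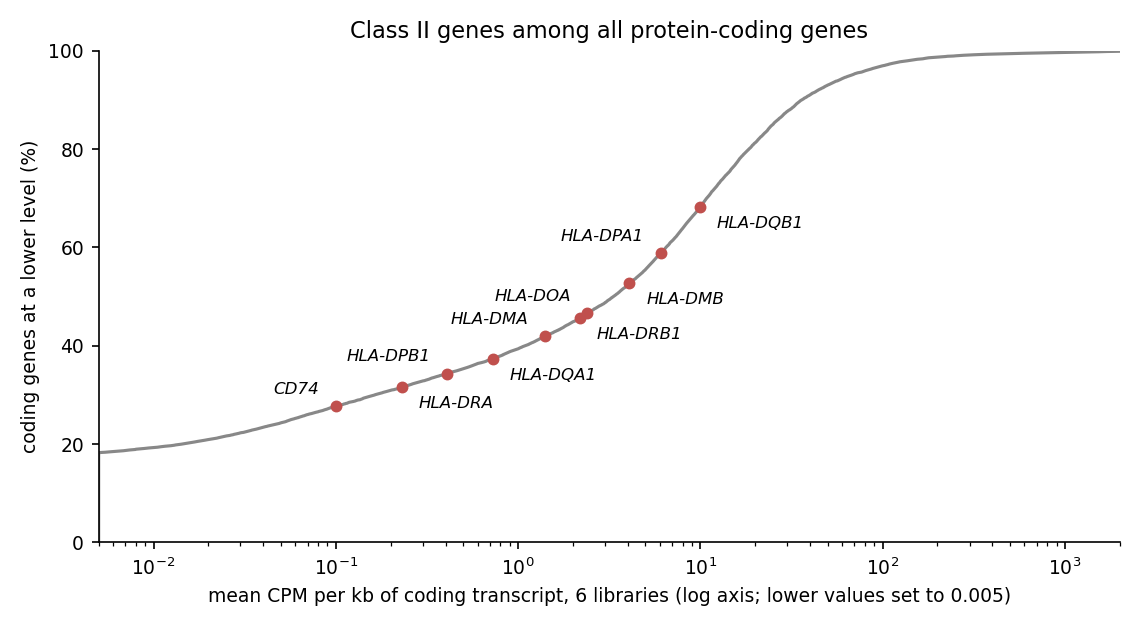
Share of 19562 protein-coding genes at a lower level (%, vertical) against the mean level in CPM per kb of coding transcript over 6 libraries (log axis, horizontal); the grey line is all coding genes and the red points are the 10 class II genes. CD74 sits at 27.7% and HLA-DQB1 at 68.2%.

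HLA-DRA and CD74 were the 2 genes near silence, defined as a mean under 1 CPM in both groups. HLA-DRA (chr6:32439878-32445046, plus strand), the alpha chain of every HLA-DR molecule, had 2, 1 and 0 counts in 100Q, against 4, 2 and 2 in 0Q. CD74 (chr5:150401637-150412969, minus strand) had 0, 0 and 2 counts in 100Q, against 5, 1 and 0 in 0Q. A floor of 3 counts, a chosen value, corresponded to 0.256 to 0.750 CPM in a library. A level below that floor rests on at most 2 counts in the library. As a background of stray counts, 15 of 20 genes that belong to other organs (such as INS, HBB and GCG) had 0 counts in every library. HBA1 and HBA2 were the only ones of them with more than 5 counts in all, at 140 and 39. HLA-DRA reached 11 counts over the 6 libraries and CD74 reached 8, fewer than either. HBA1 also held more counts than HLA-DRB1, at 111. Whether the counts of HBA1 and HBA2 are stray was not tested. HLA-DQA1 lay just outside the limit, at 1.10 ± 0.392 CPM in 100Q, against 0.658 ± 0.120 CPM in 0Q (SD, n = 3 each).

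Among the presenting chains, HLA-DQB1 (chr6:32659467-32668383, minus strand; all coordinates hg38) had the highest level per kilobase. It had 90.88, 79 and 162 counts in 100Q, against 86, 157 and 123 in 0Q, or 17.5, 19.8 and 13.8 CPM against 11.96, 19.7 and 16.2 CPM. The groups covered almost the same range. This one gene made up 33.7% of the summed class II level in 100Q and 35.8% in 0Q. HLA-DQB1-AS1, an antisense gene inside it, had at most 3.12 counts in a library, and reads of the pair cannot be told apart without strand.

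HLA-DPA1 (chr6:33064569-33080775, minus strand), the alpha chain of HLA-DP, followed with 61, 44 and 118 counts in 100Q, against 74, 75 and 58 in 0Q. These were 11.7, 11.01 and 10.1 CPM in 100Q, against 10.3, 9.40 and 7.63 CPM in 0Q. The lowest 100Q library lay just under the highest 0Q library, so the groups overlapped by 1 library on each side. HLA-DRB1 (chr6:32577902-32589848, minus strand), the main HLA-DR beta gene, had 12, 19 and 33 counts in 100Q (2.30, 4.75 and 2.82 CPM) and 14, 11 and 22 in 0Q (1.95, 1.38 and 2.90 CPM). Its 100Q replicate 2 was the highest library, and the others interleaved.

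HLA-DPB1 (chr6:33075990-33089696, plus strand), the beta chain of HLA-DP, had 12, 3 and 43 counts in 100Q, against 8, 10 and 5 in 0Q, which is 2.30, 0.750 and 3.68 CPM against 1.11, 1.25 and 0.658 CPM. Most of its 100Q counts lay in replicate 3, the deepest library, while 100Q replicate 2 fell among the 0Q libraries. HLA-DQA1 (chr6:32628179-32647062, plus strand), the alpha chain of HLA-DQ, had 8, 4 and 9 counts in 100Q (1.53, 1.00 and 0.769 CPM) and 4, 5 and 6 in 0Q (0.556, 0.627 and 0.790 CPM). Its lowest 100Q library and highest 0Q library nearly coincided.

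The editors stood at intermediate levels. HLA-DOA (chr6:33004182-33009591, minus strand) had 60, 33 and 80 counts in 100Q, against 48, 58 and 71 in 0Q, or 11.5, 8.25 and 6.84 CPM in 100Q and 6.68, 7.27 and 9.34 CPM in 0Q. HLA-DMB (chr6:32934629-32941028, minus strand), the beta chain of the peptide exchanger, had 26, 25 and 53 counts in 100Q, against 47.55, 36 and 46 in 0Q, or 4.99, 6.25 and 4.53 CPM against 6.68, 4.51 and 6.05 CPM. Its alpha chain HLA-DMA (chr6:32948613-32969094, minus strand) had 6, 6 and 20 counts in 100Q, against 9, 17 and 11 in 0Q, or 1.15, 1.501 and 1.71 CPM against 1.25, 2.13 and 1.45 CPM. For all 3 genes the libraries of the groups interleaved. HLA-DMA overlaps BRD2 on the opposite strand, a gene at 508 ± 10.1 CPM in 100Q, against 528 ± 4.35 CPM in 0Q (SD, n = 3 each). A readthrough gene across HLA-DMA and HLA-DMB, ENSG00000248993, had 8.45 counts in 0Q replicate 1 and 0 elsewhere.

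The difference between conditions was tested across the whole table with the quasi-likelihood test of edgeR, for genes that passed its filter on low counts. Of the 10 class II genes 6 were tested and 0 passed, against 2 of 14905 genes (0.0134%). With DESeq2 0 of the 6 passed (0.0738% of all genes tested with it) and with limma-voom 0 passed (0.00671%). At an unadjusted p under 0.05 there were 0 of 6, where 4.72% of all tested genes lay under it. For none of the 10 were the CPM values of 100Q and 0Q fully apart, which held for 10.6% of tested genes. The median log2 fold change of the 6 was 0.12, against -0.0027 over all tested genes.

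HLA-DQB1 had a log2 fold change, 100Q over 0Q, of 0.07 (95% interval -0.40 to 0.54), which corresponds to between 0.759 and 1.45 times the 0Q level. The other presenting chains tested were HLA-DPA1 at 0.26 (-0.27 to 0.79) and HLA-DRB1 at 0.64 (-0.54 to 1.82). The editors had 0.18 (-0.47 to 0.83) for HLA-DOA, -0.13 (-1.43 to 1.17) for HLA-DMA and -0.14 (-0.93 to 0.64) for HLA-DMB. The intervals of HLA-DQB1, HLA-DPA1, HLA-DOA and HLA-DMB stay within a doubling or halving, and those of HLA-DRB1 and HLA-DMA reach beyond it. Adjusted p lay between 0.9905 and 0.9946 for the 6 genes (edgeR quasi-likelihood, Benjamini-Hochberg over all genes tested).

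**Figure D3:**
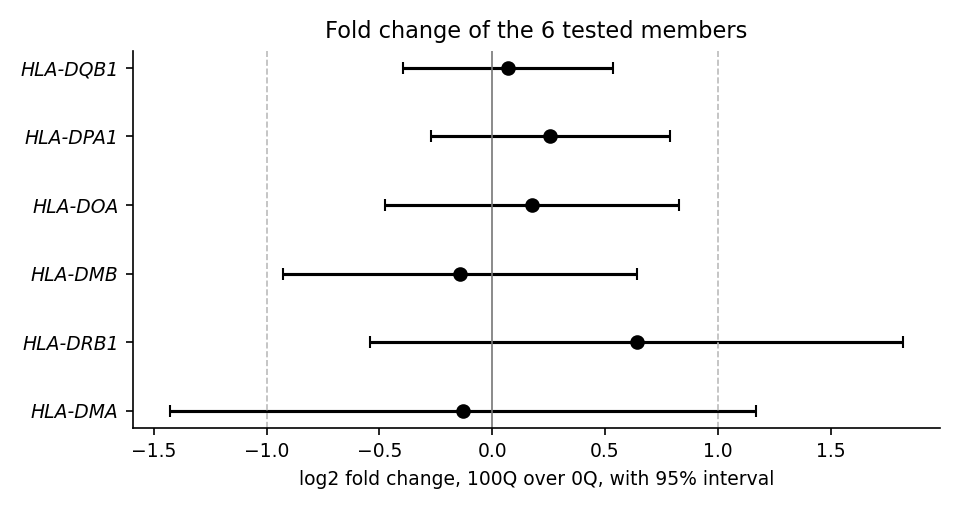
Log2 fold change of the 6 tested class II genes, 100Q over 0Q, from the edgeR fit, ordered by mean CPM; points are estimates, bars their 95% intervals, and dashed lines mark a doubling and a halving. Every interval includes 0, and those of HLA-DRB1 and HLA-DMA cross a dashed line.

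HLA-DRA, HLA-DPB1, HLA-DQA1 and CD74 did not pass the filter on low counts and were not tested. HLA-DPB1 had 81 counts over the 6 libraries, more than the 69 of HLA-DMA, which was tested. The filter weighs the level in each library, and the counts of HLA-DPB1 were uneven. For HLA-DPB1 the summed counts were 58 in 100Q, against 23 in 0Q, a ratio of 2.80 per library total with an exact interval of 1.70 to 4.75 that covers counting error only. Without 100Q replicate 3 the sums were 15 and 23, and the ratio 1.62 (0.784 to 3.23), and without any other single library it was 2.39 to 3.30. HLA-DPB1 passed the filter in 4 of the 6 edgeR fits that left out 1 library, with log2 fold changes of 0.97 to 1.57. The highest, without 100Q replicate 2, had an unadjusted p of 0.0377 and an adjusted p of 0.995 (edgeR quasi-likelihood, Benjamini-Hochberg). All of these fits kept 100Q replicates 1 and 3, its highest libraries, and without either of them HLA-DPB1 was left out. It thus entered only where 100Q was high, so these values are no evidence of a difference. For HLA-DQA1 the sums were 21 and 15, with a ratio of 1.55 (0.763 to 3.24). For HLA-DRA they were 3 in 100Q and 8 in 0Q, with a ratio of 0.416 (0.0711 to 1.73). That ratio was 0.186 without 100Q replicate 1 and 0.929 without 100Q replicate 3. For CD74 the sums were 2 in 100Q and 6 in 0Q, with a ratio of 0.370 (0.0365 to 2.07). Its direction rested on 0Q replicate 1, without which the sums were 2 and 1 and the ratio 1.52 (0.0789 to 89.4), and without 100Q replicate 3 no CD74 count was left in 100Q, against 6 in 0Q. When all genes with any count entered the edgeR fit, adjusted p of these 4 genes ran from 0.815 to 0.942 (quasi-likelihood test, Benjamini-Hochberg).

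The balance of alpha and beta chains was read from the share of the alpha chain in a pair's counts, with Wilson 95% intervals that cover counting error only. In no pair were the counts near equality. In HLA-DP the alpha chain dominated, with 83.6%, 93.6% and 73.3% in 100Q and 90.2%, 88.2% and 92.1% in 0Q. The lowest share, that of 100Q replicate 3 (66.0% to 79.5%), belonged to the library with the high HLA-DPB1 count. HLA-DPA1 and HLA-DPB1 overlap each other on opposite strands, and both overlap the pseudogene RPL32P1, which leaves reads from the shared stretches uncertain.

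In HLA-DQ the imbalance ran the other way. HLA-DQA1 held 8.08%, 4.82% and 5.26% of the pair's counts in 100Q and 4.44%, 3.09% and 4.65% in 0Q. Summed over the 6 libraries there were 36 counts of HLA-DQA1 and 698 of HLA-DQB1, and per kilobase the beta chain was 13.6 times the alpha chain. Every 100Q share lay above every 0Q share, but the gap was narrow: 4.82% in 100Q replicate 2 (4 alpha and 79 beta counts, interval 1.89% to 11.7%) against 4.65% in 0Q replicate 3 (6 alpha and 123 beta counts, interval 2.15% to 9.78%).

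In HLA-DR, with HLA-DRB1 as the only beta gene counted, the alpha chain held 14.3%, 5% and 0% in 100Q and 22.2%, 15.4% and 8.33% in 0Q. The 0 of 33 counts in 100Q replicate 3 allowed a share of up to 10.4%. HLA-DRB5, another HLA-DR beta gene, was left out of this pair. With it the beta counts were 12, 23 and 44 in 100Q, against 28, 14 and 35 in 0Q. Shares with both beta genes were not computed, so the HLA-DR shares hold for HLA-DRB1 alone. In HLA-DM the alpha chain held 18.8%, 19.4% and 27.4% in 100Q and 15.8%, 32.1% and 19.3% in 0Q, values that interleaved. Corrected for length, HLA-DMB stood 2.91 times above HLA-DMA and HLA-DRB1 9.54 times above HLA-DRA, both per kilobase of coding transcript, whereas HLA-DPA1 stood 14.9 times above HLA-DPB1. These values depended on the length used. For HLA-DR the mean log2 ratio of alpha over beta was -3.21 per kilobase of coding transcript and -1.88 per kilobase of exon union. In the same order it was 4.07 and 2.66 for HLA-DP, and -1.50 and -0.93 for HLA-DM.

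**Figure D4:**
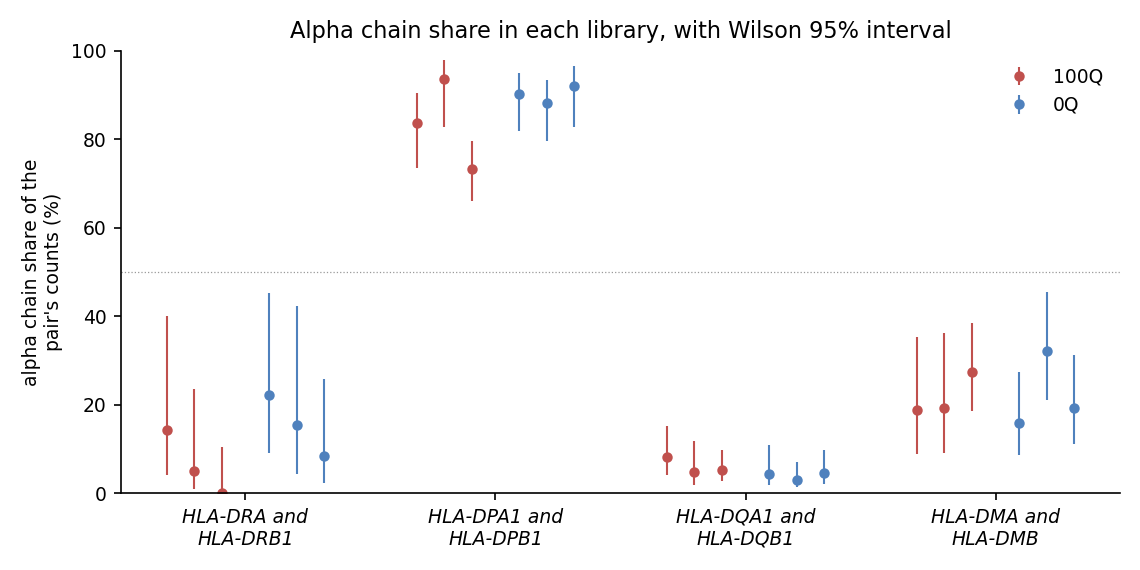
Share of the alpha chain in the counts of each chain pair (%), by library, for 100Q (red, left) and 0Q (blue, right), with Wilson 95% intervals; the dotted line marks equal counts. HLA-DP lies between 73.3% and 93.6%, and HLA-DQ between 3.09% and 8.08%.

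As log2 ratios of alpha over beta counts with 0.5 added to each, the groups were compared by a two-sided exact permutation test, whose smallest possible p with 3 libraries a group is 0.1. HLA-DQ had -3.89 ± 0.40 in 100Q and -4.45 ± 0.34 in 0Q (SD, n = 3 each), a difference of 0.56 (exact p = 0.1). HLA-DP had 2.47 ± 1.12 in 100Q and 3.13 ± 0.28 in 0Q (exact p = 0.4), a difference of -0.66 that was -0.15 without 100Q replicate 3. HLA-DR had -4.03 ± 1.89 in 100Q and -2.35 ± 0.75 in 0Q (exact p = 0.2), a difference of -1.68 that was -0.66 without 100Q replicate 3, whose HLA-DRA count was 0. The beta counts of HLA-DRB5 are not part of this ratio. HLA-DM had -1.79 ± 0.36 and -1.81 ± 0.67 in the same order (exact p = 0.9). After Benjamini-Hochberg adjustment over the 4 pairs, the exact permutation p ran from 0.4 to 0.9, above 0.05 for every pair, a threshold that this design cannot reach. Of the 4 pairs, HLA-DQ was the one with shares fully apart between the groups; among single genes, 10.6% of those tested had CPM values fully apart.

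Reads shared between genes were looked for in the deposited values, because estimated counts become fractional when reads fit several genes. Of the 60 class II values, 2 (3.33%) were more than 0.005 from a whole number, against 29.1% over all tested genes. They were HLA-DQB1 in 100Q replicate 1 and HLA-DMB in 0Q replicate 1. In the same libraries the genes that overlap them had fractional values too, 3.12 for HLA-DQB1-AS1 and 8.45 for ENSG00000248993. The 60 values include the 4 genes that the filter on low counts left out, and a count of 0 is always whole. The shares are therefore of unlike sets and do not show that class II reads were shared less. HLA-DRB5, the close paralog of HLA-DRB1, had 0, 4 and 11 counts in 100Q, against 14, 3 and 13 in 0Q. The sum of both DRB genes was 12, 23 and 44 counts in 100Q, against 28, 14 and 35 in 0Q. HLA-DOB, the beta chain that partners HLA-DOA, had 4, 7 and 9.83 counts in 100Q, against 4, 8.63 and 13.58 in 0Q. Of the 12 table rows for 11 further class II genes and pseudogenes, 9 had 0 counts in every library and 0 could be tested.

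Most genes around the class II pathway were expressed well enough to be tested, and they gave no call. Of 14 genes for peptide supply and processing of the invariant chain, 13 were tested and 0 passed, with a median log2 fold change of -0.03. The lysosomal protease CTSD averaged 165 ± 5.73 CPM in 100Q, against 161 ± 8.77 CPM in 0Q (SD, n = 3 each), and the adaptor subunit AP2M1 averaged 227 ± 17.9 CPM against 227 ± 15.4 CPM. CTSS, the protease that trims the invariant chain in professional antigen-presenting cells, had 0 counts but for 3 in 0Q replicate 2. CTSV had the 1 unadjusted p under 0.05 in this list, at a log2 fold change of -0.33 (95% interval -0.66 to -0.0033). Of 7 genes for turnover, among them the tetraspanins CD81 and CD63 and the ubiquitin ligase MARCHF8, 7 were tested and 0 passed, with a median log2 fold change of 0.08.

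Of 8 class II transcription genes, 8 were tested and 0 passed, with a median log2 fold change of -0.07. CIITA averaged 1.38 ± 0.399 CPM in 100Q, against 1.88 ± 0.312 CPM in 0Q (SD, n = 3 each), with a log2 fold change of -0.39 (95% interval -1.66 to 0.87). These values rest on 75 counts over the 6 libraries, and the CIITA count was fractional in all 6. RFX5, a subunit of the X box complex, averaged 87.1 ± 3.88 CPM in 100Q, against 95.1 ± 11.5 CPM in 0Q. Of 10 other genes in the class II region 8 were tested and 0 passed, with a median of 0.10 on the log2 scale. PSMB8 and PSMB9, with 9 and 13 counts over the 6 libraries, were not tested. The transporter TAP2, a neighbour, was at 47.6 ± 4.91 CPM in 100Q, against 42.0 ± 3.55 CPM in 0Q. Over 6 libraries the genes whose log2 CPM followed HLA-DQB1 most closely, of 10576 compared, were NPL, TOGARAM1 and ETNK2 (Pearson r = 0.97 each). As many as 52 genes had an r over 0.9 across these 6 libraries, so the ranking describes the libraries and sets no gene apart.

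Queuosine tRNAs read the codons of tyrosine, histidine, asparagine and aspartate, and these were counted in the longest coding sequence of each gene. They made up 11.7% (HLA-DRB1) to 15.2% (CD74) of the codons of the 10 genes, with a median of 13.7% against 13.5% over 19558 coding genes. Of these codons, 54.5% (HLA-DRA) to 77.4% (HLA-DRB1) ended in C, with a median of 70.1% against 57.1% over coding genes, and 8 of the 10 lay above that median. HLA-DQB1 had 25 of 34 ending in C and CD74 33 of 45. HLA-DRA and HLA-DMB, with 18 of 33 and 21 of 38, lay below it. In phenylalanine and cysteine codons, which these tRNAs do not read, the median C-ending share was 68.6% against 55.3%, and 7 of the 10 lay above. For both kinds of codon the median of the 10 genes thus lay above that of coding genes. This did not hold for every gene, and HLA-DRA lay below for both kinds.

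**Figure D5:**
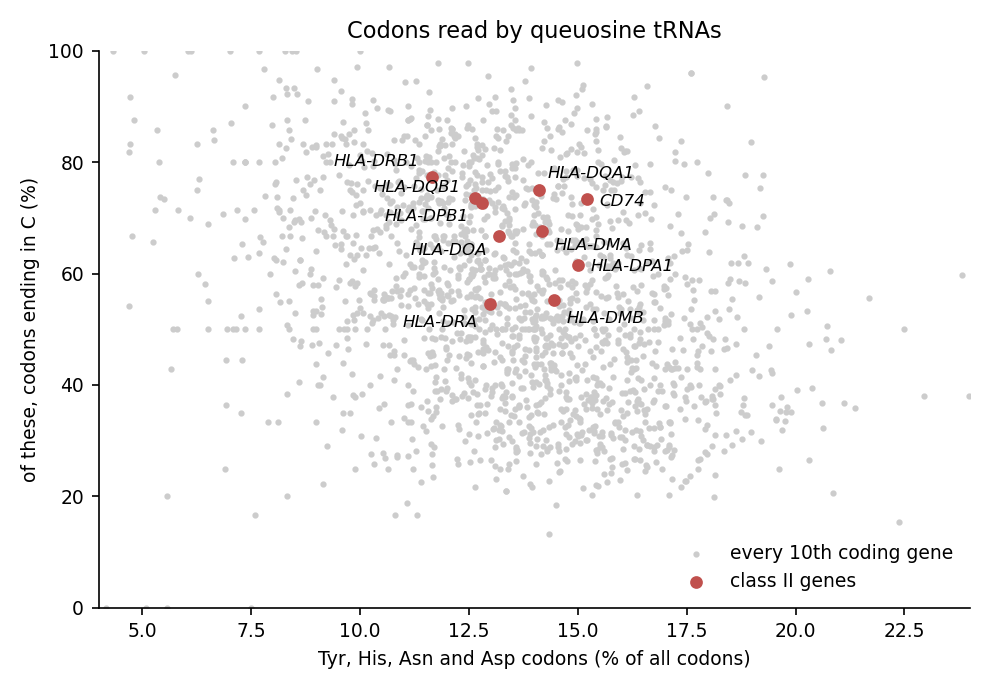
C-ending share (%, vertical) against the share of all codons (%, horizontal) of the tyrosine, histidine, asparagine and aspartate codons; grey points are every 10th coding gene and red points the 10 class II genes. The class II genes lie between 11.7% and 15.2% on the horizontal axis and between 54.5% and 77.4% on the vertical axis.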

How the data were processed

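The values are estimated counts per Ensembl gene that the authors deposited without normalization, 1 column per library. Per the labels' protocols, RNA was extracted with TRIzol and prepared by MSR-seq. Per the submitters' processing notes, FastQC, STAR and RSEM were used, and the series design gives hg38. For versions, annotation, strand setting and molecular identifiers the sources used here give nothing. The submitters' library labels place every column in 1 sample. Symbols came from a table of Ensembl gene names, in which 545 identifiers were not matched (0.129% of counts). Coordinates (1-based, hg38), lengths and coding sequences came from GENCODE release 44.

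Counts were rounded and fitted with edgeR 4.0.16 (R 4.3.3), using TMM factors, edgeR's own filter on low counts (10 as its minimum), and calls at an adjusted p under 0.05 (Benjamini-Hochberg over all tested genes). The fit was run on simulated data, with changes placed only in genes of higher level than HLA-DRB1 and HLA-DMA. That run does not show what could be found for these genes or for the untested members. Members and lists were chosen with earlier results of these data known. Every member is described; in each list, genes that passed and up to 4 of highest mean CPM could be named, with genes overlapping a member. CTSS, CTSV, CIITA, PSMB8 and PSMB9 were named after their values were seen. The values of 1 marker gene are not reported here. No replicates looked like 1 library deposited again (chi-square over degrees of freedom 5.16 to 14.2), and PCR reads are not independent molecules. Alternatives were other normalizations and filters, DESeq2 1.42.0, limma-voom (limma 3.58.1), the replicate block and leaving out each library.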

Additional observations from a re-analysis of the deposited data

How the results depend on the processing

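In none of the 13 alternative fits did a class II gene pass (79 values of member genes; lowest adjusted p 0.815). Genes called over the whole table were 2 in the edgeR fit, 71 with no filter on low counts, 1 with a mean count of at least 50, 11 with DESeq2, 1 with limma-voom, and 0 to 6 without 1 library (6 when 100Q replicate 3 was left out, and 0 when any of 100Q replicate 1, 0Q replicate 1 and 0Q replicate 2 was). With the replicate block 3 genes were called. Same-numbered libraries did not deviate together (correlations of 1.84e-05, -0.016 and 0.088). This check cannot exclude that same-numbered samples were handled together.

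Leaving out 1 library turned the direction of the log2 fold change of HLA-DQB1 (-0.10 to 0.25), HLA-DMA (-0.29 to 0.12) and HLA-DOA (-0.058 to 0.36), and of the HLA-DM chain difference (-0.26 to 0.39). With limma-voom HLA-DQB1 had -0.0018. HLA-DPA1, HLA-DRB1 and HLA-DMB kept their direction in every fit that gave a value. HLA-DPB1 gave no value without 100Q replicate 1 or 100Q replicate 3, its highest libraries, so its direction without them was not tested. Without 1 library, the chain difference ran from -2.53 to -0.66 for HLA-DR, from -1.26 to -0.15 for HLA-DP and from 0.33 to 0.69 for HLA-DQ. The mean log2 ratio of alpha over beta for HLA-DP was 4.07 per kilobase of coding transcript and 2.66 per kilobase of exon union (2.80 uncorrected). For HLA-DQ it was -3.71 on that scale and -4.66 per kilobase of exon union (-4.17 uncorrected), for HLA-DR it was -1.88 per kilobase of exon union (-3.19 uncorrected), and for HLA-DM it was -0.93 per kilobase of exon union (-1.80 uncorrected). The edgeR filter left out 4 genes, against 2 near silent by CPM. For members under 10 counts a library, depth limits what can be seen.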
